A study of Mus musculus with 3 samples.

Results

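Heat shock chaperones are proteins that hold, fold or refold other proteins, and 10 of their genes were followed here in cells dissociated from the mouse pituitary intermediate lobe (IL). The members were Hspa1a, Hspa1b, Hsp90aa1, Hsp90ab1, Dnajb1, Hspb1, Hsph1, Hspa8, Hspd1 and Hspe1. They were chosen by name, and all 10 had a row in each of the 3 count tables, out of 15527 genes present in all 3 tables and 17775 present in any. The IL is made up largely of melanotrophs, endocrine cells that process the product of Pomc into melanocyte-stimulating hormone, along with stem cells (SCs). The data were 3 droplet libraries, 1 per genotype, each from ILs of 3-month-old animals that the labels give tamoxifen by gavage at 4 weeks of age, whereas the study's text describes induction at birth. All 3 genotypes carry Sox9iresCreERT2/+, a Cre recombinase that tamoxifen activates in cells using Sox9, SCs among them, and, by the study's methods, a Cre-dependent YFP reporter. WT has this allele alone. P27NULL is labelled p27-/- in addition, with loss of the cell cycle inhibitor encoded by Cdkn1b. S2CK is labelled p27-/- and Sox2fl/+, so that Cre can remove 1 copy of Sox2 in cells where it is active. Each library held cells of pooled animals, on a mixed background, so animals are not replicates here and no difference between genotypes could be tested.

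When proteins misfold, as in heat, the transcription factor HSF1 is released, forms trimers and binds heat shock elements, which are runs of GAA units in alternating orientation, upstream of chaperone genes. The inducible members depend most on this response: Hspa1a and Hspa1b, near-identical copies of the stress-inducible HSP70, Dnajb1, an HSP40 that delivers clients to HSP70, Hsph1, an HSP110 that exchanges its nucleotide, Hspb1, a small heat shock protein (HSP27) that holds unfolded clients, and Hsp90aa1, the inducible cytosolic HSP90. The constitutive members work in unstressed cells: Hspa8, the resident HSP70 (HSC70), Hsp90ab1, the resident HSP90, and Hspd1 and Hspe1, the mitochondrial chaperonin HSP60 and its lid HSP10. Enzymatic dissociation of tissue at body temperature is known to raise heat shock and immediate early genes, and here tissue was kept in papain at 37 °C for 15 min.

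Upstream sequences of the inducible Hspa1a, Hspb1 and Hsph1 and of the constitutive Hspe1 are shown because they hold matches to the letters that HSF1 reads. Both strands of the 250 bases before the start site were searched for pairs of adjacent units, GAANNTTC or TTCNNGAA, and for longer runs that contain them (RefSeq, GRCm38.p6). Of 32851 promoter entries of that length, 12.8% held a pair, 0.466% a run of 3 units and 0.0213% a run of 4, so a pair alone is common. Entries were found for 7 of the 10 members, and Hspa8, Hsp90aa1 and Hsp90ab1 had none. Capitals below mark the GAA and TTC units of each match.
Hspa1a, bases -250 to -1, chr17:34972157-34972406, minus strand: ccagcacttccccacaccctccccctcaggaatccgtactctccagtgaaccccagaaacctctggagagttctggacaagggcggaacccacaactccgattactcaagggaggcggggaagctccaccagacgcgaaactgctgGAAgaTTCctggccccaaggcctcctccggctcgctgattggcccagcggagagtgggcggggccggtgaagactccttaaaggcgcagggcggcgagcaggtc
Hspb1, bases -130 to -71, chr5:135887789-135887848, plus strand: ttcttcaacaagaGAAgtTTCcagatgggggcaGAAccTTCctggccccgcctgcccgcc
Hsph1, bases -44 to -15, chr5:149636351-149636380, minus strand: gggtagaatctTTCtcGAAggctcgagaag
Hspe1, bases -95 to -66, chr1:55088053-55088082, plus strand: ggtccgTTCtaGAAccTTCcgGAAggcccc
Hspa1a and Hspa1b lie on chromosome 17 and held 1 pair each, starting at base -104. Over the 250 bases the copies were 98.8% identical and differed by C44T, T47C and T249G, counted from 1 at the 5′ end of the window with the base of Hspa1a first. Hspb1 held 2 pairs. Hspd1 and Hspe1 start head to head on chromosome 1 and share the run of 4 units at bases 55088059 to 55088076. In exact units, both constitutive mitochondrial genes thus had a longer run than any inducible member with an entry. Units with a mismatched base were not searched for, so runs that hold such units were not compared. Another entry of Hspd1, with its start site at 55088243, held no match. The 2 entries of Dnajb1 held no match, which says only that these letters were not in these windows.

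The tables held 2020 cells and 8332285 UMIs (molecular tags that count captured transcripts) in WT, 4153 cells and 15588317 UMIs in P27NULL, and 3488 cells and 19239147 UMIs in S2CK. Clusters named from marker genes gave 1282, 3537 and 3016 melanotroph-like cells and 139, 105 and 94 SC-like cells in WT, P27NULL and S2CK, and the melanotroph and SC marker lists (7 and 6 genes) were all detected in the cells they name. Levels are CPM, the UMIs of a gene summed over all cells of 1 type and scaled to a common total. Because each UMI marks the 3′ end of 1 transcript, CPM was not divided by gene length. Square brackets hold 95% intervals, exact Poisson for CPM, exact conditional for log2 ratios and Clopper-Pearson for shares, and these cover counting error only. Shares of cells with a UMI were taken after each cell was thinned to 1000 UMIs, since median depth differed. Melanotroph-like cells had a median of 4162, 2822 and 5022.5 UMIs in WT, P27NULL and S2CK, and 5.36%, 4.76% and 7.56% mitochondrial UMIs. WT held 162 cells under 1000 UMIs, which thinning left out, and the other libraries held 0. Cdkn1b, the gene removed by the p27-/- label, stood at 34.4, 30.9 and 16.9 CPM in melanotroph-like cells of WT, P27NULL and S2CK, so its transcript was not lower in the library labelled P27NULL than in WT beyond counting error, and 3′ reads from outside a deleted part would not show the deletion. Sox2 stood at 271, 308 and 130 CPM in SC-like cells. The libraries shared 2 to 4 cell barcodes in pairs. Cells with a Xist UMI and no UMI of 4 Y-linked genes were called female and cells without a Xist UMI male, which gave 766 female and 3370 male cells in P27NULL. The WT table has no Xist row and 28.7% of its cells held a Y-linked UMI. In S2CK 3274 of 3488 cells were called female, and none of the other 214 held a Y-linked UMI, so no cell read as male by both signs there. The study gives the S2CK pool as male and female, which these calls do not show.

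In melanotroph-like cells the inducible HSP70 transcripts were close to absent in all 3 libraries. Hspa1a was found at 9.51 CPM [7.22, 12.3] in the WT library, at 5.19 CPM [4.06, 6.55] in that labelled P27NULL and at 3.27 CPM [2.47, 4.25] in S2CK. Hspa1b stood at 6.23 CPM [4.41, 8.55], 5.92 CPM [4.71, 7.36] and 1.63 CPM [1.09, 2.36] in the same order. A UMI of Hspa1a was found in 1.04% of thinned WT cells [0.553, 1.76], 0.226% of P27NULL cells [0.0977, 0.445] and 0.265% of S2CK cells [0.115, 0.522]. WT was above both other libraries for Hspa1a, while for Hspa1b WT and P27NULL overlapped above S2CK. That order rests on 1 cell of P27NULL, described below, without which the library stood at 2.42 CPM [1.67, 3.40] of Hspa1a and 2.57 CPM [1.79, 3.57] of Hspa1b, under WT for both and overlapping S2CK. The reads of these copies are partly inseparable: 63.9% of the 50-base windows in the last 500 bases of the shorter Hspa1b transcript also occur in Hspa1a, against 0% for the long transcripts of either gene (GENCODE vM1). Dnajb1, the HSP40 that works with them, stood at 36.4 [31.8, 41.5], 25.0 [22.4, 27.8] and 18.5 [16.5, 20.7] CPM in the melanotroph-like cells of WT, P27NULL and S2CK, with no overlap between any 2 intervals. Hsph1 was 42.9 [37.9, 48.5], 50.3 [46.6, 54.2] and 17.1 [15.2, 19.2] CPM in WT, P27NULL and S2CK cells, and S2CK lay apart from both others. Hspb1 was 190 [180, 202], 124 [118, 130] and 116 [111, 121] CPM in WT, P27NULL and S2CK cells. Hsp90aa1, inducible yet present in unstressed cells, was the most abundant inducible member at 272, 258 and 215 CPM.

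Hsp90ab1, Hspa8 and Hspe1 were above every inducible member in each library, while Hspd1 was at the level of Hsp90aa1. Hsp90ab1 stood at 1512, 1529 and 1460 CPM in melanotroph-like cells of WT, P27NULL and S2CK, and 77.2%, 76.4% and 75.9% of thinned cells held a UMI of it. Hspa8 stood at 840, 923 and 746 CPM, Hspe1 at 702, 695 and 553 CPM, and Hspd1 at 249, 280 and 212 CPM. S2CK was the lowest library for all 4, except that Hsp90ab1 was at a log2 ratio of 0.07 against P27NULL and 0.00 against WT with TMM factors, a scaling that balances the bulk of genes. Together the constitutive members gave 3302 [3257, 3348], 3428 [3397, 3459] and 2971 [2945, 2997] CPM in WT, P27NULL and S2CK cells, against 557, 469 and 371 CPM for the inducible members. The ratio of constitutive to inducible UMIs was therefore 5.92 in WT, 7.31 in P27NULL and 8.01 in S2CK.

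**Figure D1:**
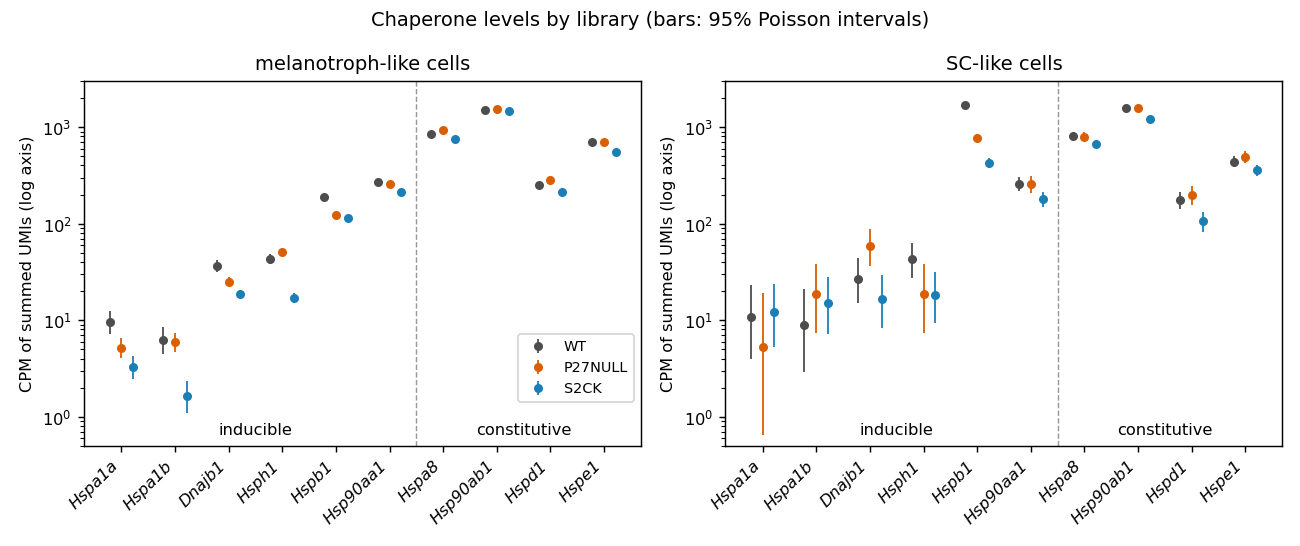
CPM of the 10 members on a log axis in melanotroph-like (left) and SC-like cells (right) of WT, P27NULL and S2CK, with 95% Poisson intervals as bars. Hspa1a and Hspa1b lie at the bottom in melanotroph-like cells, and Hspb1 lies far higher in SC-like than in melanotroph-like cells (1679 against 190 CPM in WT).

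In CPM, the largest difference of an inducible member between SC-like and melanotroph-like cells was that of Hspb1 in each library. Hspb1 stood at 1679 [1573, 1789], 764 [679, 858] and 423 [374, 475] CPM in SC-like cells of WT, P27NULL and S2CK. These levels were 8.82, 6.15 and 3.66 times those of melanotroph-like cells of the same library. Hspb1 made up 82.9%, 68.1% and 63.6% of the inducible UMIs of SC-like cells, against 34.1%, 26.5% and 31.2% in melanotroph-like cells. The other inducible members together were at 0.942, 1.04 and 0.945 times the melanotroph level, with intervals that include no difference in each library. Within them the HSP70 copies were higher in SC-like cells of S2CK, Hspa1a 3.69-fold (8 UMIs) and Hspa1b 9.23-fold (10 UMIs), and Hspa1b also in P27NULL, 3.11-fold (7 UMIs), with intervals above 1-fold. The last becomes 7.18-fold without 1 melanotroph-like cell of P27NULL that held 46 of its Hspa1b UMIs. In P27NULL Dnajb1 was 2.32-fold higher (22 UMIs, of which 6 were in 1 cell) and Hsph1 at 0.367 times (7 UMIs). In WT neither copy differed beyond its interval.

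The constitutive sum was 0.912, 0.892 and 0.787 times as high in SC-like as in melanotroph-like cells of WT, P27NULL and S2CK, with intervals below 1. Hsp90ab1 and Hspa8 were at 0.831 to 1.05 times the melanotroph level. The mitochondrial pair was lower in SC-like cells of all 3 libraries, Hspd1 at 0.710, 0.706 and 0.499 times and Hspe1 at 0.625, 0.709 and 0.644 times the melanotroph level in WT, P27NULL and S2CK.

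Hspb1 in SC-like cells was spread over many cells rather than held by a few. Among thinned SC-like cells the median was 2 UMIs in WT, 1 in P27NULL and 0 in S2CK, and 31 of 128, 48 of 105 and 60 of 94 cells held none. The highest single cell held 3.50%, 7.59% and 9.29% of the library's SC-like Hspb1 UMIs. P27NULL stood at a log2 ratio of -1.13 [-1.33, -0.94] to WT, and S2CK at -0.86 [-1.10, -0.61] to P27NULL and -1.99 [-2.19, -1.80] to WT. Cryab, the other small heat shock protein abundant in these cells and named here after its values were seen, stood at 832, 714 and 791 CPM, with a log2 ratio of -0.07 [-0.26, 0.11] for S2CK against WT. The summed SC markers had the same order as Hspb1, at 9663, 8377 and 5033 CPM, and Pomc, a melanotroph transcript that can reach other droplets as free RNA, stood at 24998, 12245 and 21170 CPM. The gonadotroph markers also differed, at 4003, 870 and 21.1 CPM in SC-like cells. The part of these in the Hspb1 values was not tested.

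In WT the inducible sum was highest in SC-like cells (2024 CPM), followed by endothelial-like (783 CPM), connective tissue-like (692 CPM) and corticotroph-like cells (674 CPM), and SC-like cells were apart from the next while the other 3 overlapped. In S2CK endothelial-like (713 CPM) and SC-like cells (664 CPM) overlapped at the top. Endothelial-like cells held 569, 563 and 577 CPM of Hspb1 in WT, P27NULL and S2CK, with intervals that overlap. T or NK-like cells had 0 Hspb1 UMIs in WT and S2CK, which allows up to 74.3 and 54.1 CPM, while the 15 cells of this kind in P27NULL, under the minimum of 20 for comparisons between types, held 6 UMIs (191 CPM). Macrophage-like cells held 58.1, 47.7 and 27 CPM. The constitutive sum was highest in corticotroph-like cells of all 3 libraries, at 3782, 3775 and 3202 CPM, but it overlapped the next type in each, pituicyte-like cells in WT and gonadotroph-like cells in the other 2. Dnajb1 had an order of its own. It reached 59.9, 148 and 97.3 CPM in corticotroph-like cells of WT, P27NULL and S2CK (28, 45 and 29 UMIs), more than in melanotroph-like cells of P27NULL and S2CK, while in WT the intervals overlapped. Corticotroph-like cells were not the highest in P27NULL, where Pou1f1 lineage-like cells stood at 183 CPM of Dnajb1 (14 UMIs in 28 cells).

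**Figure D2:**
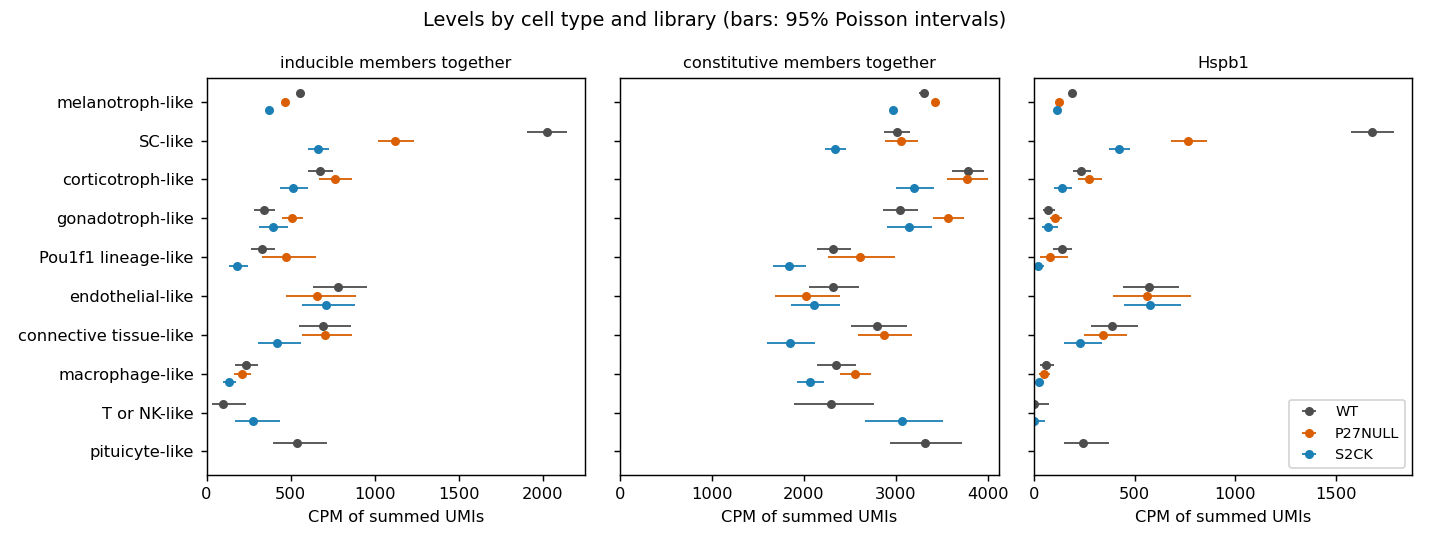
CPM of the inducible sum, the constitutive sum and Hspb1 by cell type, for types with at least 20 cells, with WT, P27NULL and S2CK as separate points and 95% Poisson intervals as bars. SC-like cells spread from 664 to 2024 CPM for the inducible sum, while endothelial-like cells sit together near 570 CPM of Hspb1.

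Loss of p27 was addressed by P27NULL against WT, and the dose of Sox2 in cells with active Cre on that background by S2CK against P27NULL. The study treats the melanotrophs of P27NULL and S2CK as genetically equivalent, so in melanotroph-like cells the second contrast is not one of Sox2 copies within those cells. In melanotroph-like cells the inducible sum of P27NULL had a log2 ratio of -0.25 [-0.31, -0.19] to WT, and that of S2CK -0.34 [-0.39, -0.29] to P27NULL. S2CK carries the same p27-/- label, with Cdkn1b at 16.9 CPM against 34.4 CPM in melanotroph-like cells of WT. For the inducible sum S2CK against WT, which does not use the P27NULL library, gave -0.59 [-0.65, -0.53]. The constitutive sum gave 0.05 [0.03, 0.08], which turned to -0.03 with TMM factors and -0.04 with a total that leaves out Pomc, mitochondrial and ribosomal protein genes, then -0.21 [-0.22, -0.19] and -0.15 [-0.18, -0.13]. The median log2 ratio over all genes was 0.09, -0.16 and -0.04 in these contrasts, so relative to the median gene the constitutive sum of S2CK against P27NULL was at -0.05 and the inducible sum at -0.18.

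Counting members past a fold of 1.5, 8 of the 10 had enough UMIs in melanotroph-like cells. For P27NULL against WT 1 of 8 passed, Hspb1, which was lower at -0.61 [-0.72, -0.51], where 3.43% of all eligible genes passed in either direction. For S2CK against P27NULL 1 of 8 passed, Hsph1 at -1.56 [-1.76, -1.36], against 12.1% of genes, a share near the background. For S2CK against WT 3 of 8 passed, Dnajb1 (-0.98), Hsph1 (-1.33) and Hspb1 (-0.72), all lower, against 7.84% of genes. No constitutive member passed in any of the 3 contrasts. In S2CK against P27NULL all 10 members had log2 ratios below 0, but so had the median of all genes, at -0.16. Relative to that median Hspb1 was at 0.05 and Hsp90ab1 at 0.09, and the other members were below 0. Hspa1a changed sign without 1 cell described below. Hspb1 (-0.10) and Hsp90ab1 (-0.07) turned to 0.03 and 0.07 with TMM factors, which raised every log2 ratio of that contrast by 0.13.

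In SC-like cells the inducible sum of P27NULL was at -0.85 [-1.01, -0.69] to WT, and that of S2CK at -0.76 [-0.95, -0.56] to P27NULL and -1.61 [-1.77, -1.45] to WT. Without Hspb1 the first of these was 0.05 [-0.27, 0.38], and the second -0.57 [-0.91, -0.23]. The constitutive sum gave 0.02 [-0.09, 0.13], which turned to -0.05 with TMM factors, then -0.39 [-0.50, -0.28] and -0.36 [-0.47, -0.26]. Of 6 members with enough UMIs, 1 passed a fold of 1.5 for P27NULL against WT (Hspb1, with 12.8% of genes passing), 2 for S2CK against P27NULL (Hspb1 and Hspd1, the latter at -0.90, with 25.8% of genes passing) and 2 for S2CK against WT (Hspb1 and Hspd1 at -0.74, with 23% of genes passing). Each of these was lower in the first-named library.

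The sex call of the cells moved with these ratios. Within P27NULL, female melanotroph-like cells (636, median 3768 UMIs) and male ones (2890, median 2673.5 UMIs) could be set side by side in 1 library. A Y-linked UMI was found in 23.0% of these male cells and in 32.4% of the melanotroph-like cells of WT. The WT cells were deeper, at a median of 4162 UMIs, so these shares cannot be compared directly. The male call needs only the absence of a Xist UMI, so it can hold female cells whose Xist was missed. The inducible sum was 367 CPM in female and 496 CPM in male cells, a log2 ratio of -0.43 [-0.53, -0.34], and the constitutive sum 2897 and 3574 CPM, a log2 ratio of -0.30 [-0.34, -0.27]. Hsph1 (-0.84), Hsp90aa1 (-0.66) and Hspa8 (-0.45) were lower in female cells, Dnajb1 (0.55) was higher, and Hspb1 at 120 and 126 CPM did not differ beyond its interval. Female and male cells come from different animals, so sex and animal cannot be told apart.

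Set against female P27NULL cells alone, S2CK melanotroph-like cells no longer had the lower sums. All 3016 S2CK cells were kept here, and the 2898 with a female call gave 0.02 [-0.08, 0.11] for the inducible and 0.04 [0.00, 0.07] for the constitutive sum. With all of them the log2 ratio of the inducible sum was 0.02 [-0.08, 0.11] in place of -0.34, and that of the constitutive sum 0.04 [0.00, 0.07] in place of -0.21. Dnajb1 (-0.84) and Hsph1 (-0.85) and, less, Hspd1 (-0.20) were lower in S2CK with intervals below 0, while Hsp90aa1 (0.28) and Hsp90ab1 (0.11) were higher. With male P27NULL cells against the male WT library, the inducible sum was -0.17 [-0.23, -0.11], Hspb1 -0.60 [-0.71, -0.48] and Dnajb1 -0.68 [-0.95, -0.41], while the inducible members without Hspb1 gave 0.01 [-0.06, 0.09]. In SC-like cells Hspb1 of male P27NULL against WT was -1.07 [-1.27, -0.87], close to the value over all cells. S2CK could be set against WT only across sex calls, since no S2CK cell held a Y-linked UMI. P27NULL held 18 SC-like cells with a female call, and Hspb1 of S2CK stood at -0.28 [-0.88, 0.37] against these.

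**Figure D3:**
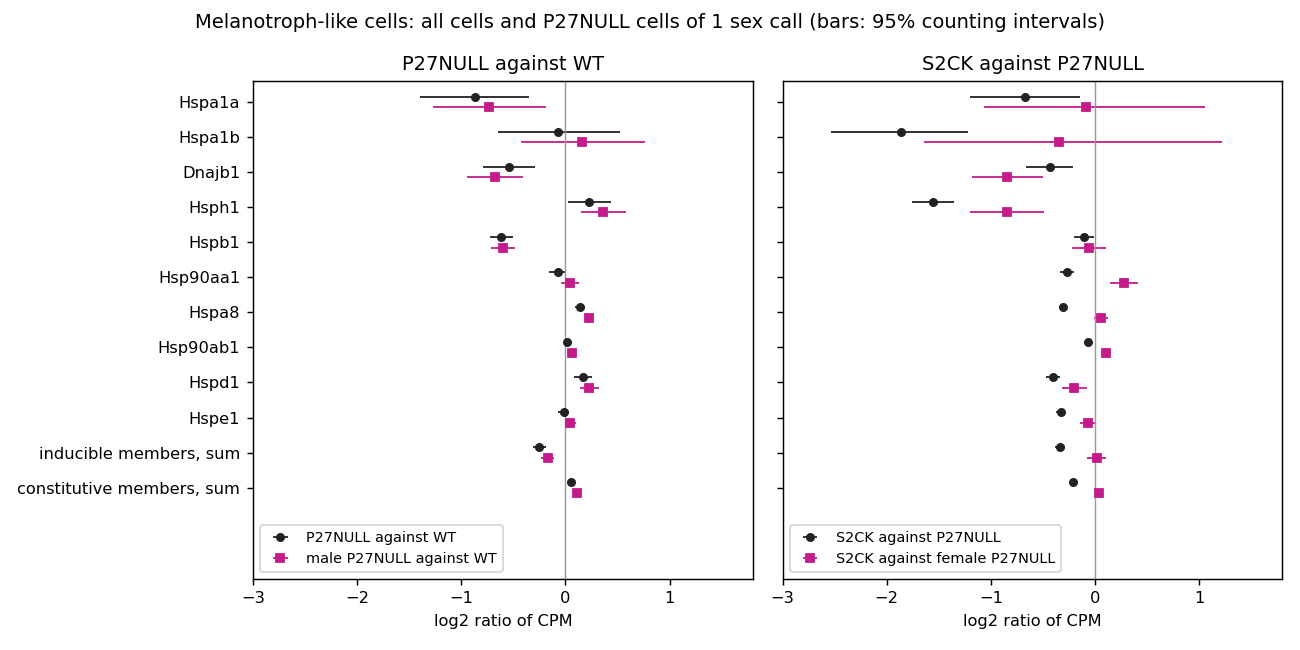
Log2 ratios of CPM in melanotroph-like cells for the 10 members and both sums, with 95% counting intervals, for all cells (black circles) and for P27NULL cells of 1 sex call (magenta squares: male P27NULL cells on the left, female P27NULL cells on the right, with all WT and all S2CK cells kept). On the left the pairs lie close together, while on the right the sums move from -0.34 and -0.21 to 0.02 and 0.04.

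A single melanotroph-like cell of P27NULL held 84 of that library's 152 melanotroph Hspa1a and Hspa1b UMIs, 38 of the first and 46 of the second. In all 9661 cells of the 3 libraries the next highest cell held 4. The cell had 47421 UMIs and 7034 genes, the third-highest depth in its library, 4.30% mitochondrial UMIs, all 7 melanotroph markers and a doublet score at percentile 39.2 of its library. The other inducible members were high in it too, Hsph1 at 148 CPM [59.3, 304] against 50 CPM in the others. In it Hspb1 was at 1518 CPM [1188, 1912] against 119 CPM in the other melanotroph-like cells of P27NULL. Dnajb1 was at 358 CPM [209, 574] against 23.9, Hsp90aa1 at 780 CPM [549, 1075] against 256 and Hspe1 at 1940 CPM [1564, 2379] against 690. Hspa8 (928 against 923 CPM) and Hspd1 (316 against 280 CPM) lay within their intervals of the other cells, as did the endoplasmic reticulum chaperones Hspa5 and Hsp90b1. Hsp90ab1 was higher, at 2720 CPM [2271, 3232] against 1525. The cell was chosen for its Hspa1a and Hspa1b UMIs after they were seen, so its values are a description.

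Other genes of that cell also stood out. Its 20 highest genes against the other cells included Cryab (5 UMIs), Vegfa (18 UMIs), an angiogenic factor, and Hk2 (11 UMIs), a hexokinase, named after their values were seen. Fos, Junb and Egr1, immediate early genes, had 0 UMIs in it, which allows up to 77.8 CPM, and the 16 immediate early genes together stood at 1033 CPM against 3678 CPM in the other cells. Pomc was at 35723 CPM against 133544 CPM. Without this cell the log2 ratio of Hspa1a for S2CK against P27NULL changed sign, from -0.67 to 0.43 [-0.21, 1.10], and that of Hspa1b moved from -1.86 to -0.65 [-1.42, 0.11]. P27NULL against WT moved from -0.87 to -1.97 for Hspa1a and from -0.07 to -1.28 for Hspa1b. The inducible sum moved little, to -0.29 in both contrasts.

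**Figure D4:**
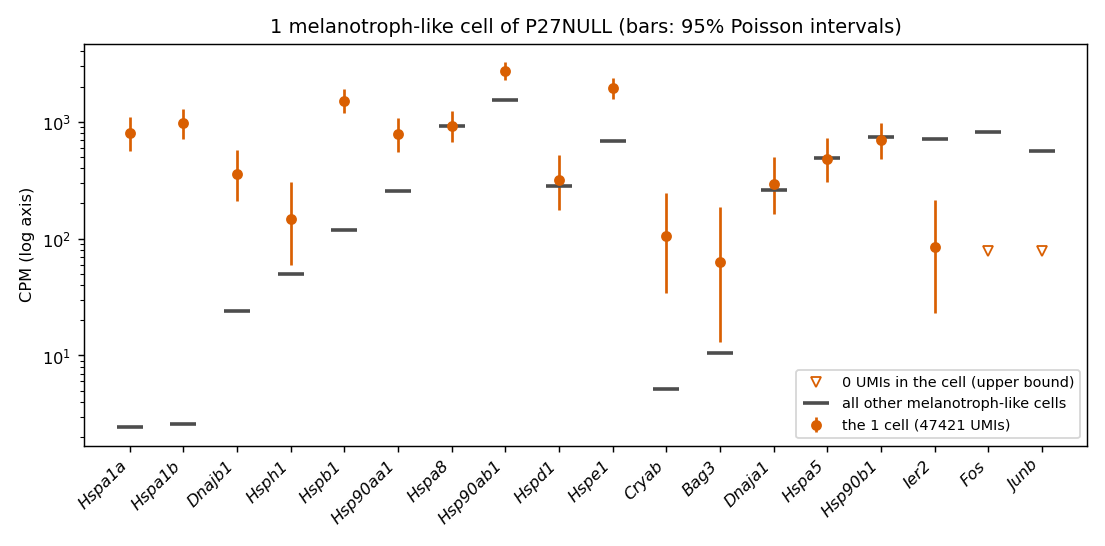
CPM on a log axis of the 10 members, 5 other chaperone genes and 3 immediate early genes in the single P27NULL cell (orange, 95% Poisson bars, open triangles for the upper bound at 0 UMIs) and in all other melanotroph-like cells of that library (grey dashes). Hspa1a and Hspa1b lie at 801 and 970 CPM against 2.42 and 2.57, while Hspa8, Hspd1, Dnaja1, Hspa5 and Hsp90b1 lie on the grey dashes.

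Apart from that cell, detection of the inducible members was scattered over cells. Of melanotroph-like cells 76 in WT, 67 in P27NULL and 80 in S2CK held a UMI of Hspa1a or Hspa1b, and 3, 2 and 0 held both. The single cell was kept in the P27NULL values here and after thinning, and before thinning it was 1 of the 2 with both. After thinning, 1, 1 and 0 cells held both, where 0.104, 0.0204 and 0.00531 were given by the product of the shares, and the ratios of 9.65 [0.244, 53.8] in WT and 49.1 [1.24, 274] in P27NULL rest on 1 cell each. No thinned cell held all 6 inducible members. At least 2 of the 6 were found together mostly in pairs: 7.17% of WT cells, 3.93% of P27NULL cells and 2.65% of S2CK cells held exactly 2, and 6.86%, 4.17% and 2.79% were given by independence. Of the 15 inducible pairs, 0, 1 and 0 had an interval above 1 in WT, P27NULL and S2CK, the exception being the Hspa1a and Hspa1b pair. Among 6 constitutive pairs the ratio of observed to expected ran from 0.959 to 1.08 in WT, 0.995 to 1.04 in P27NULL and 0.960 to 1.02 in S2CK. These counts change with the draw of UMIs, and with another seed the copies were found together in 0 cells of WT and P27NULL. The top 10% of cells held 40.9%, 43.1% and 45.8% of the thinned inducible UMIs and 21.5%, 20.7% and 21.8% of the constitutive ones. The median thinned cell held 0 inducible and 3 constitutive UMIs, and a sparser sum gives a larger share, so these shares cannot be compared directly. The variance over the mean was 1.11, 1.05 and 1.07 for the inducible sum in WT, P27NULL and S2CK. For the constitutive sum it was 1.17, 1.08 and 1.06.

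**Figure D5:**
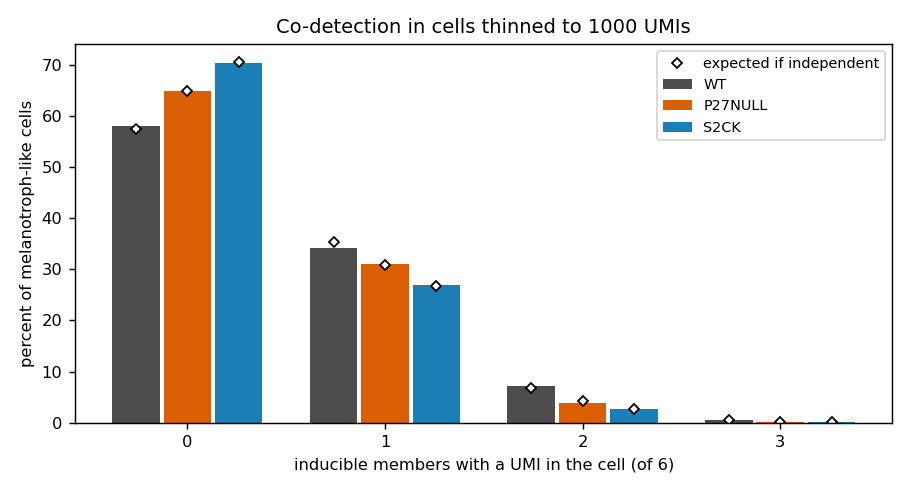
Percent of melanotroph-like cells, thinned to 1000 UMIs, with a UMI of 0, 1, 2 or 3 of the 6 inducible members (bars) and the percent given by independent detection (diamonds). In each library the diamonds sit at the bar tops, and cells with none of the 6 make up 58.0% of WT, 64.7% of P27NULL and 70.4% of S2CK.

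The inducible sum also varied among melanotroph-like clusters within a library. It ran from 507 to 638 CPM over 6 clusters of WT, from 407 to 558 CPM over 8 clusters of P27NULL and from 348 to 419 CPM over 9 clusters of S2CK, so the ranges of WT and S2CK did not meet and that of P27NULL overlapped both. The top P27NULL cluster (432 cells) held the single cell and fell to 505 CPM without it, which left 507 CPM, in a cluster of 172 cells, as the highest of P27NULL and level with the lowest of WT. The highest in WT was a cluster of 214 cells led by haemoglobin transcripts, and without it P27NULL against WT gave -0.21 in place of -0.25. From the lowest to the highest quartile of depth, the inducible sum went from 646 to 534 CPM in WT. In P27NULL it went from 479 to 504 CPM, with the single cell kept, and in S2CK from 397 to 361 CPM. By quartile of mitochondrial share it went from 522 to 603, 456 to 471 and 356 to 393 CPM. The part of depth and mitochondrial share in the contrasts was not tested.

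Other genes of the pathway were taken from lists. Hsf1, the transcription factor itself, stood between 10.4 and 15.1 CPM in melanotroph-like cells of the 3 libraries. Of 3 eligible genes of HSF1 and its regulators 0 passed, with Hsf2 at -0.45, Hikeshi, which imports HSP70 into the nucleus, at 0.42 and Hsbp1 at -0.09 for S2CK against P27NULL. Over all genes with enough UMIs, 12.1% passed a fold of 1.5 in S2CK against P27NULL, and of 5937 genes 574 were lower and 144 higher. Of 14 other stress-inducible chaperones and co-chaperones, 10 had enough UMIs, and for S2CK against P27NULL 3 were lower and 0 higher by 1.5-fold: Chordc1 (-1.06) and Stip1 (-0.90), co-chaperones of HSP90, and Hspa4l (-0.66), an HSP110 relative. Their list median was -0.35, beside -0.16 for all genes. Bag3, a nucleotide exchange factor of HSP70, stood at 11.1, 10.8 and 8.70 CPM. Among 14 cytosolic HSP70 and HSP40 genes with enough UMIs 3 were lower, St13 (-0.93), Dnajb2 (-0.92) and Dnaja4 (-0.86), and among 10 HSP90 co-chaperones 3 were lower, Nudcd3 (-0.77), Cdc37 (-0.68) and Ahsa2 (-0.65). In the list of the cytosolic chaperonin TRiC and of prefoldin, which hands actin and tubulin to it, 3 of 13 were higher and 0 lower. All 3 were prefoldin subunits, Pfdn2 (0.80), Pfdn6 (0.77) and Pfdn5 (0.60), while the 7 TRiC subunits with enough UMIs lay between -0.09 and 0.21 and 0 passed. Of the mitochondrial list 0 of 6 passed, with Grpel1 at 0.45, and Hspb11, the eligible gene of the small heat shock list, was at 0.52. In P27NULL against WT, where 3.43% of all genes passed, 0 genes of any of these chaperone lists did, and the largest log2 ratios were those of the ubiquitin gene Ubb (-0.47) and Stip1 (0.46). Several genes lower in S2CK were above 0 in that contrast, with Hspa4l at 0.42, St13 at 0.43, Nudcd3 at 0.42 and Dnajb2 at 0.33. Hspa5 and Hsp90b1, the chaperones of the endoplasmic reticulum, were at 0.27 and -0.33 in S2CK against P27NULL.

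The immediate early genes, the other set known to respond to dissociation, ran partly apart from the chaperones. In melanotroph-like cells the 16 genes summed to 5503, 3669 and 2793 CPM in WT, P27NULL and S2CK, in the same order as the inducible chaperones, with list medians of -0.47 and -0.43 for the first contrasts. Of 11 eligible genes 5 were lower by 1.5-fold in P27NULL than in WT, where 48 of all 4488 eligible genes were, led by Dusp1 (-1.43), Nr4a1 (-1.20) and Junb (-0.92), and 3 were lower in S2CK than in P27NULL, where 574 of 5937 were, Nr4a1 (-1.36), Fos (-0.88) and Jun (-0.70). Their part in the chaperone values was not tested. In SC-like cells they summed to 7982, 13979 and 7495 CPM, with 12 of 15 eligible genes higher by 1.5-fold in P27NULL than in WT, beside 193 of all 2782 eligible genes. The inducible sum was lower in that contrast through Hspb1, and without it stood at 0.05 [-0.27, 0.38]. Hspa1a held 6, 2 and 8 UMIs.

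By likeness of pattern over 26 sums of library and cell type, the mean profile of the inducible members correlated most with Cldn3 (Pearson r 0.87), Mlf2 (0.86), Smarcd3 (0.86), 2310061I04Rik (0.86), Cx3cl1 (0.84), Limk2 (0.84), Prss36 (0.84), Ptprf (0.83), Ptges3 (0.83) and Tax1bp1 (0.83), among 11843 genes. Dnajb1 had only r 0.11 with the profile it is part of. Hsp90aa1 had r 0.85 with the constitutive profile, which it is no part of, and 0.73 with the inducible one. The constitutive profile was most like Atp5e (0.89), Pdcd4 (0.86) and Tma7 (0.84). These sums share libraries, depth and cell types, so the values are descriptions without a p. Each inducible member counts equally in its profile, although Hspa1a and Hspa1b had few or 0 UMIs in many sums. The highest Hspa1b value, 26.2 CPM in Pou1f1 lineage-like cells of P27NULL, came from 2 UMIs in 1 cell.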

How the data were processed

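The authors sequenced 3 Chromium 3′ v3 libraries and deposited 1 table of raw UMI counts per library, genes by cells. Per the labels and the study's methods, reads were processed with Cell Ranger 3.0.2 (STAR 2.5.1b) against GRCm38 and cells filtered with Seurat 3 (R 3.6.0) on genes detected and mitochondrial share. The deposited counts are not normalized, and every column was mapped to its library (0 columns without a sample). Depth and mitochondrial share of melanotroph-like cells are given in the report.

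Cells were scaled to 10000 counts, 2000 variable genes without the chaperone lists and immediate early genes were kept, and 20 components with 20 neighbours were clustered in each library by Leiden at resolution 1 (scanpy 1.11.5, igraph 0.11.9, Python 3.11.15). Clusters were named from marker lists. Scrublet called 9, 1 and 1 cells in WT, P27NULL and S2CK, too few to use, so no doublets were removed and an alternative left out the 33, 138 and 97 cells of highest score. UMIs were summed by library and cell type, types with under 20 cells were left out of comparisons between types, and intervals were computed with scipy 1.17.1. With 1 library per genotype no test was possible and no p-value is given. Members were counted past a fold of 1.5 among genes with at least 500 UMIs (melanotroph-like) or 50 UMIs (SC-like) over both libraries. TMM factors came from edgeR 4.0.16 in R 4.3.3. Alternatives were TMM, another total, thinning, other clusterings, doublets left out, P27NULL cells of 1 sex call, and a fold of 2.

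Named genes were the 10 members, the 3 genes of each other list with the largest log2 ratio in each melanotroph contrast among those with 500 UMIs, Hsf1, Bag3, Hspa5 and Hsp90b1, and the 10 genes most like the mean of the standardized members over sums with at least 50000 UMIs, among genes reaching 20 CPM. Members and lists were chosen with earlier results of these data known. The scripts were tested on simulated data.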

Additional observations from a re-analysis of the deposited data

Results flagged for a closer look

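Dnajb1, the HSP40 partner of HSP70, differed in opposite directions in the 2 cell types for P27NULL against WT, and the difference between them was not tested. In melanotroph-like cells its log2 ratio was -0.54 [-0.79, -0.29], from 342 and 222 UMIs. In SC-like cells it was 1.12 [0.11, 2.17], from 22 and 15 UMIs, and 6 of the 22 UMIs of P27NULL lay in 1 cell.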

How the results depend on the processing

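Of 78 alternatives to the 8 log2 ratios of the sums, 52 stayed within the counting interval and 17 moved beyond it. The other 9 turned the sign of a ratio whose interval excluded 0. Sign changes within an interval that held 0 are counted among the 52. These occurred for the SC-like constitutive sum of P27NULL against WT, which ran from -0.060 to 0.084 over its 8 alternatives. In melanotroph-like cells with TMM factors P27NULL against WT gave -0.33 (inducible) and -0.026 (constitutive), while S2CK against P27NULL gave -0.20 and -0.073. A total that leaves out Pomc and the mitochondrial and ribosomal protein genes gave -0.34, -0.039, -0.21 and -0.080 in the same order. Thinning to 1000 UMIs gave -0.37 and 0.015 for P27NULL against WT. With P27NULL cells of 1 sex call and all cells of the other library the values were -0.17, 0.11, 0.015 and 0.036, and with female cells of both libraries S2CK against P27NULL gave 0.017 and 0.035. Leaving out Hspb1 gave -0.091 and -0.43 for the inducible sums. In SC-like cells leaving out Hspb1 gave 0.052 for P27NULL against WT. For S2CK against P27NULL the inducible sum against female P27NULL cells was -0.20, and -0.21 with female cells of both libraries, and the constitutive sum was -0.27 with TMM factors, -0.25 with the other total, -0.23 after thinning and 0.13 in both comparisons with female cells. Co-detection of Hspa1a and Hspa1b in WT went from 9.65 to 0 with joint clustering, with 2000 UMIs per cell and with another seed, and in P27NULL from 49.1 to 0 with another seed. At a fold of 2 the melanotroph-like count of members was 0 of 8 for P27NULL against WT, where 0.579% of all eligible genes passed. It was 1 of 8, Hsph1, for S2CK against P27NULL (2.04% of genes) and for S2CK against WT (1.56% of genes). The SC-like count was 1 of 6, Hspb1, for P27NULL against WT (2.55% of genes) and for S2CK against WT (6.26% of genes). For S2CK against P27NULL it was 0 of 6, where 8.18% of genes passed. The alternatives without Hspb1, with female cells of both libraries, without the haemoglobin-led cluster and without the single cell were chosen after seeing the data. The causes were not tested. No paired analysis was possible because there was 1 library per genotype. A limit is that genotype, library, pool of animals and, for S2CK against WT, sex cannot be told apart, and the HSP70 copies rest on 28 to 81 UMIs per library in melanotroph-like cells and 2 to 10 in SC-like cells.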

Other observations

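Genes found most often in the same melanotroph-like cells as Hspa1a or Hspa1b, by the lowest ratio of observed to expected cells over the 3 libraries, were Kif22, Ube2l3, Phf20l1, Cadm1, Rap1a, Khdrbs3, Ptprn, Hspa4l, Fam114a2 and Zfp560, among 2020 genes. The highest of these lowest ratios was 2.18, for Kif22, a kinesin. Over the 2020 genes the 95th percentile of the ratio was 2.19, 2.34 and 2.87 in WT, P27NULL and S2CK. Kif22 stood at 2.72, 2.18 and 2.82, above that percentile in WT alone. Hspa4l stood at 1.73, 1.99 and 1.68, under it in each library. Hspa4l, an HSP110 relative, was the member of the other chaperone lists among the 10. The cells behind these ratios are few, and the ratios are given as a description.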
